A study of Mus musculus with 6 samples.

Results

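The colony-stimulating factor axis of BV2 cells was examined through 10 genes: the ligand gene Csf1, the receptor genes Csf1r, Csf2ra, Csf2rb and Csf3r, and the myeloid transcription factor genes Spi1, Irf8, Runx1, Cebpa and Mef2c. They are 10 of the 46095 gene symbols in the count table, matched by symbol, and all 10 were among the 14120 genes that passed the filter on low counts. They were chosen by name with the CON against sTREM-1 results of these same libraries already known, so their differences are given as a description and are not independent support for anything. BV2 is an immortalized line of mouse microglia, the resident macrophages of the brain. Cells of the CON group were untreated, and cells of the sTREM-1 group were incubated with 1 μg/mL of recombinant sTREM-1, the soluble form of the receptor TREM-1, for 6 h. Both groups were seeded in six-well plates and left overnight before treatment, and total RNA was sequenced in 3 libraries per group. The comparison asks which mRNAs of these cells differ after exposure to the protein, and being made in 1 cell line it has no animal-to-animal variation.

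The receptor CSF1R is a tyrosine kinase that binds the cytokines CSF1 and IL-34, and microglia and most tissue macrophages depend on it for survival and proliferation. The GM-CSF receptor pairs a ligand-specific alpha chain, encoded by Csf2ra, with a signalling beta chain, encoded by Csf2rb, which also serves the receptors of IL-3 and IL-5, while Csf3r encodes the receptor of G-CSF. The transcription factor PU.1, encoded by Spi1, occupies the regulatory DNA of many myeloid genes, Csf1r among them, and acts together with IRF8, RUNX1 and C/EBPα during myeloid development. MEF2C is a MADS-box factor that is known from muscle and neurons and is also present in microglia.

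The libraries held between 40070633 and 45877107 counts, and edgeR put the coefficient of variation within groups at 3.99%. Summed CPM (counts scaled to a common library size) of 8 macrophage genes ran from 2422 to 2447 in the CON group and from 2436 to 2475 in the sTREM-1 group, with Aif1 listed at 0 in all 6 libraries. Within this sum Ptprc (log2 fold change 0.10), Adgre1 (0.13) and Cx3cr1 (0.90) were higher at an adjusted p under 0.05 by edgeR. Fcer1g (-0.14) was lower at that threshold, and Itgam, Cd68 and Tyrobp did not reach it. Cx3cr1 was low, at 0.81 to 2.18 CPM. Of 6 genes of resting brain microglia, Sall1, Siglech and Gpr34 were listed at 0, and P2ry12 and Tmem119 lay between 0.56 and 1.71 CPM. Summed markers of neurons, astrocytes, fibroblasts, endothelium, lymphocytes and neutrophils stayed between 0 and 2.61 CPM in every library. Those of oligodendrocytes ran from 7.31 to 7.94 CPM in the CON group and from 5.63 to 6.70 CPM in the sTREM-1 group, and their part in the results was not tested. The labels give 3 samples per group and say nothing more of the cultures, so p-values measure only the spread between these samples, which may be technical. In bulk RNA, a different number of cells expressing a gene and a different amount of its mRNA per cell cannot be told apart.

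Compared with the CON group, Csf1r, Csf2rb and Mef2c were 1.31-fold to 1.45-fold higher after sTREM-1, Irf8 and Csf3r were 1.08-fold and 1.07-fold higher, and Csf1 fell by 10.7%. By the quasi-likelihood test of edgeR, adjusted by Benjamini-Hochberg over all 14120 tested genes, 6 of the 10 genes were called at an adjusted p under 0.05, 5 higher and 1 lower. Of all tested genes, 30.5% were called, 16.5% higher and 14.1% lower. The CON and sTREM-1 libraries did not overlap for 7 of the 10 genes, 6 higher and 1 lower, against 40.7% of all tested genes. The median log2 fold change of the 10 genes was 0.09, against -0.0017 over all tested genes. Of the 4 receptor genes 3 were called higher, the ligand gene was called lower, and of the 5 transcription factor genes 2 were called higher and 3 were not called.

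**Figure D1:**
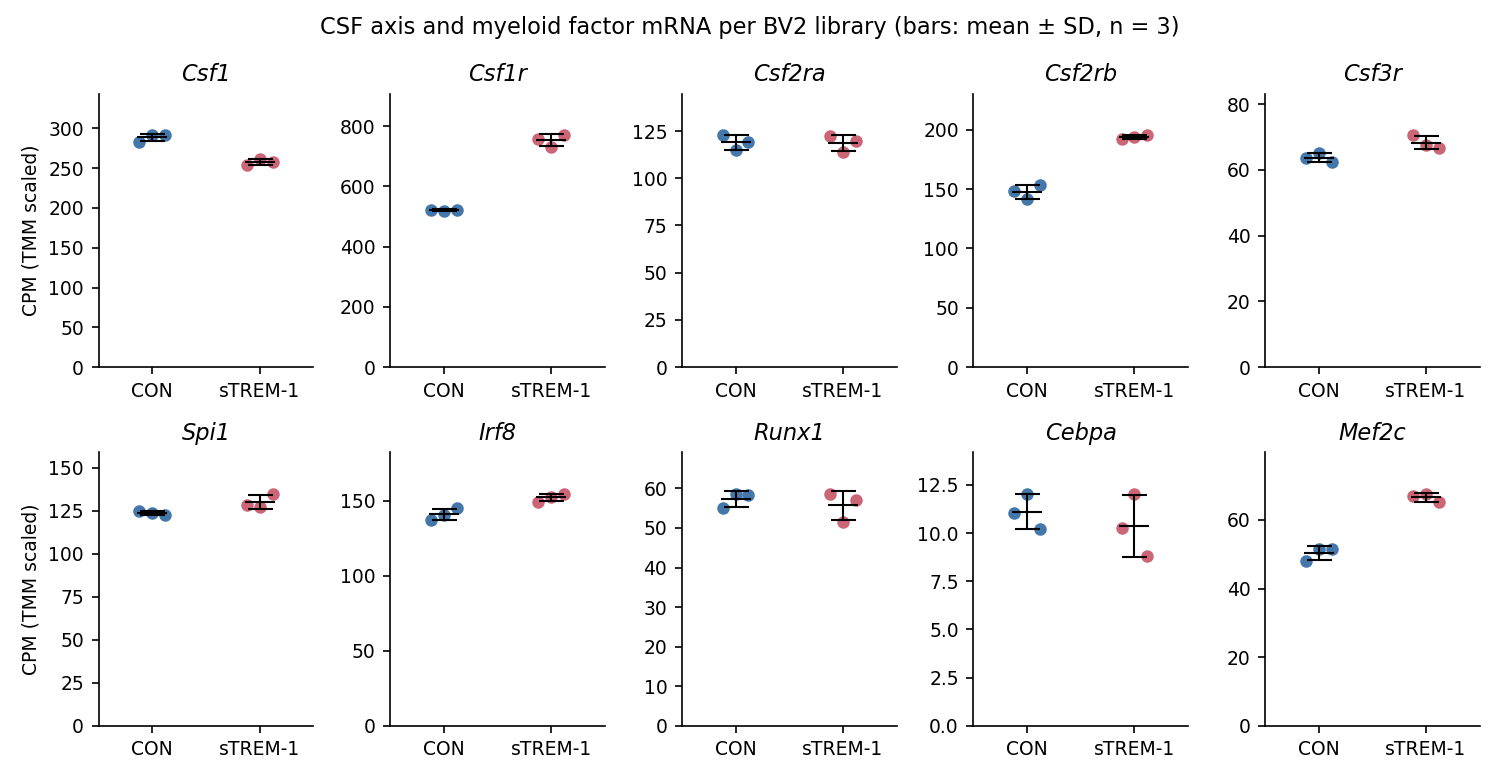
CPM (counts scaled by TMM, linear axes from 0) of the 10 genes in each of the 3 CON and 3 sTREM-1 libraries; bars are the mean ± SD. The 3 sTREM-1 libraries lay above all CON libraries for Csf1r, Csf2rb, Mef2c, Irf8, Csf3r and Spi1 and below them for Csf1, and the groups overlapped for Csf2ra, Runx1 and Cebpa.

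Csf1r lies on chromosome 18 from 61100598 to 61132149 on the plus strand (GRCm38, GENCODE M21). It measured 523, 517 and 522 CPM in the CON libraries and 759, 730.1 and 769.8 CPM in the sTREM-1 libraries. The lowest sTREM-1 library was thus far above the highest CON library, and the CON libraries differed from each other by little. The mean rose from 521 ± 3.13 to 753 ± 20.5 CPM (SD, n = 3 each), which is 1.45-fold with a 95% interval of 1.40 to 1.49. This was a log2 fold change of 0.53 ± 0.02 (SE) with an adjusted p of 2.88e-17 by edgeR's quasi-likelihood test. Csf1r ranked 8 by p-value among all tested genes, and 166 genes called higher had a larger log2 fold change. It was also among the abundant mRNAs of these cells, with 99% of tested genes at a lower CPM. Exons of Csf1r share 873 bases with Hmgxb3 on the opposite strand, and whether the counting used strand is not given in the sources used here. Hmgxb3, named here after its values were seen, had 2631 to 2837 counts per library and was not called (log2 fold change -0.06, adjusted p of 0.296 by edgeR), against 21212 to 34670 counts of Csf1r.

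Csf1 encodes the main ligand of that receptor and lies on chromosome 3 from 107741048 to 107760469 on the minus strand. It measured 283, 291 and 291 CPM in the CON libraries and 253, 262 and 258 CPM in the sTREM-1 libraries. All sTREM-1 libraries lay below all CON libraries, so that the mRNAs of receptor and ligand moved in opposite directions. The CON mean was 288 ± 4.78 CPM and the sTREM-1 mean 258 ± 4.22 CPM (SD, n = 3 each). The log2 fold change was -0.16 ± 0.03 (SE), with an adjusted p of 7.1e-06 by edgeR. A change of this size or larger was seen in 40.9% of all tested genes. The other ligand gene, Il34, had 82 to 104 counts per library, and its log2 fold change of 0.13 ± 0.20 (SE) was not called (adjusted p of 0.702 by edgeR).

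Csf2ra, the alpha chain gene of the GM-CSF receptor on chromosome 19 from 61223957 to 61228429 (minus strand), measured 123, 115 and 119 CPM in the CON libraries. The sTREM-1 libraries held 122, 114 and 119.9 CPM and overlapped with them throughout. The log2 fold change was -0.0023 with a 95% interval from -0.07 to 0.07 and an adjusted p of 0.972 by edgeR.

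Csf2rb, the beta chain gene on chromosome 15 from 78325752 to 78353847 (plus strand), measured 148, 142 and 153 CPM in the CON libraries and 192, 194 and 195 CPM in the sTREM-1 libraries. The groups were separated by more than the range within either group. The mean rose from 148 ± 5.71 to 194 ± 1.81 CPM (SD, n = 3 each), which is 1.31-fold with a log2 fold change of 0.39 ± 0.03 (SE) and an adjusted p of 9.34e-12 by edgeR. The alpha and beta chain mRNAs of this receptor therefore gave different results in the same 6 libraries, and the difference between their changes was not tested.

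The mouse genome carries a near-identical neighbour of Csf2rb, the gene Csf2rb2, whose protein is the beta chain used for IL-3 alone. It lies on chromosome 15 from 78282507 to 78305721 on the minus strand, and reads from the shared stretches could be split between the pair or lost in the counting. The coding sequences were 95.2% identical over 2628 aligned bases, and the longest identical run spanned 242 bases, at chr15:78348577-78348818 in exon 15 of the Csf2rb transcript and chr15:78284630-78284871 in exon 14 of the Csf2rb2 transcript. Of all 100-base stretches of the Csf2rb transcript, 6.96% also occur in that of Csf2rb2. The 90-base coding window in which the pair differs most is shown because reads from it can be told apart. It lies at chr15:78338897-78338986 (plus strand, exon 5 of Csf2rb) and chr15:78294345-78294434 (minus strand, exon 4 of Csf2rb2) in GRCm38, is written 5′ to 3′ along each mRNA, and has its 16 differing bases in capitals.
Csf2rb: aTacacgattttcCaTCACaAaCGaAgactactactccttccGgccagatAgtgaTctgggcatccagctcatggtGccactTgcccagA
Csf2rb2: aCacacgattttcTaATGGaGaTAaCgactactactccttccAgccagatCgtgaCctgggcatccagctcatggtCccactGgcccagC
Csf2rb2 had 3015, 2815 and 2954 counts in the CON group, and the sTREM-1 libraries held 4123, 3731 and 3696. It rose with its neighbour, with a log2 fold change of 0.34 ± 0.04 (SE) and an adjusted p of 2.43e-08 by edgeR. Csf2rb held 66.8% to 67.9% of the summed counts of the pair in the CON libraries and 67.7% to 68.9% in the sTREM-1 libraries, so the shares overlapped. With both rows summed, which does not depend on how shared reads were divided, the log2 fold change was 0.37 ± 0.03 (SE) with an adjusted p of 4.43e-12 by edgeR.

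Csf3r, the G-CSF receptor gene on chromosome 4 from 126024550 to 126044440 (plus strand), measured 63.6, 65.2 and 62.4 CPM in the CON libraries and 70.5, 67.6 and 66.8 CPM in the sTREM-1 libraries. The highest CON and the lowest sTREM-1 library were close to each other, without overlap. The log2 fold change was 0.10 ± 0.04 (SE), or 1.07-fold, and its adjusted p of 0.0475 by edgeR was just within the threshold. This call was lost in 8 of 13 alternative analyses, for example with DESeq2 (adjusted p of 0.0702) and without CON replicate 1 (0.109), CON replicate 3 (0.171), sTREM-1 replicate 1 (0.235) or sTREM-1 replicate 2 (0.0673).

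**Figure D2:**
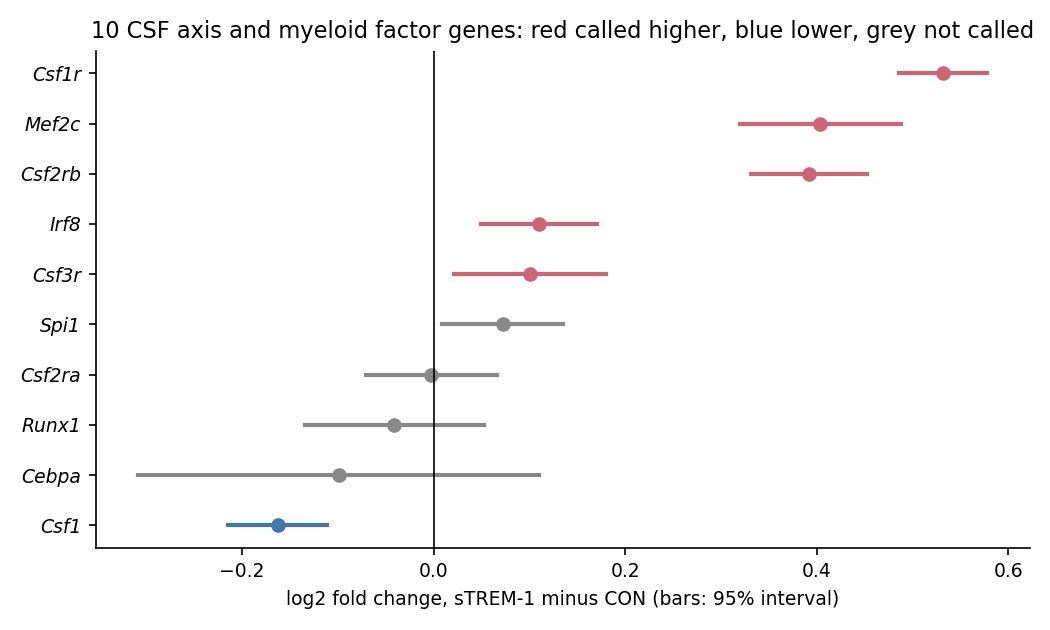
Log2 fold change (sTREM-1 minus CON, horizontal axis) of the 10 genes from edgeR, with bars for the 95% interval and colour for the call at an adjusted p under 0.05. Csf1r lay highest at 0.53, Mef2c (0.40) and Csf2rb (0.39) followed, and Csf1 was the only one called lower at -0.16.

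Among the transcription factors, Spi1 (PU.1, chromosome 2 from 91082390 to 91115756, plus strand) measured 125, 124 and 123 CPM in the CON libraries. It measured 128, 127 and 135 CPM in the sTREM-1 libraries, which lay above the CON libraries without overlap. Its log2 fold change of 0.07 had a 95% interval from 0.01 to 0.14, an unadjusted p of 0.0273 and an adjusted p of 0.0793 by edgeR, so Spi1 was just outside the threshold. It was not called in any of the 13 alternative analyses, in which the adjusted p ran from 0.0598 to 0.355.

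Irf8, whose product binds DNA together with PU.1, lies on chromosome 8 from 120736358 to 120756694 on the plus strand. It measured 137, 141 and 145 CPM in the CON libraries and 149.6, 153 and 155 CPM in the sTREM-1 libraries, with no overlap between groups. The mean rose 1.08-fold, from 141 ± 3.81 to 152 ± 2.62 CPM (SD, n = 3 each). The log2 fold change was 0.11 ± 0.03 (SE) with an adjusted p of 0.00469 by edgeR. Without CON replicate 1 the adjusted p of Irf8 by the same test was 0.0489, just within the threshold.

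Mef2c, on chromosome 13 from 83504034 to 83667080 (plus strand), had the largest difference of the 5 transcription factor genes. It measured 48.0, 51.4 and 51.7 CPM in the CON libraries and 66.9, 67.7 and 65.2 CPM in the sTREM-1 libraries. The groups did not overlap, and the gap between them exceeded the range within either. Its log2 fold change was 0.40 ± 0.04 (SE), or 1.32-fold, with an adjusted p of 4.72e-09 by edgeR. The annotation lists 27 coding transcripts of Mef2c, and the counts per gene do not say which of them differed.

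Runx1 and Cebpa were not called. Runx1, a haematopoietic factor gene on chromosome 16 from 92601466 to 92826149 (minus strand), measured 54.9, 58.7 and 58.4 CPM in the CON libraries and 58.6, 51.5 and 57.0 CPM in the sTREM-1 libraries. Cebpa, the single-exon gene of C/EBPα on chromosome 7 from 35119293 to 35121928 (plus strand), had the fewest counts of the 10 genes, 453, 494 and 418 in the CON libraries and 469, 513 and 349 in the sTREM-1 libraries. The groups overlapped for both genes. The 95% interval of the log2 fold change ran from -0.14 to 0.05 for Runx1 and from -0.31 to 0.11 for Cebpa, with adjusted p of 0.559 and 0.521 by edgeR. A difference in Cebpa as large as that of Irf8 would not have been detectable with this spread, since the CPM of Cebpa varied by 15.6% (coefficient of variation) among the sTREM-1 libraries.

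**Figure D3:**
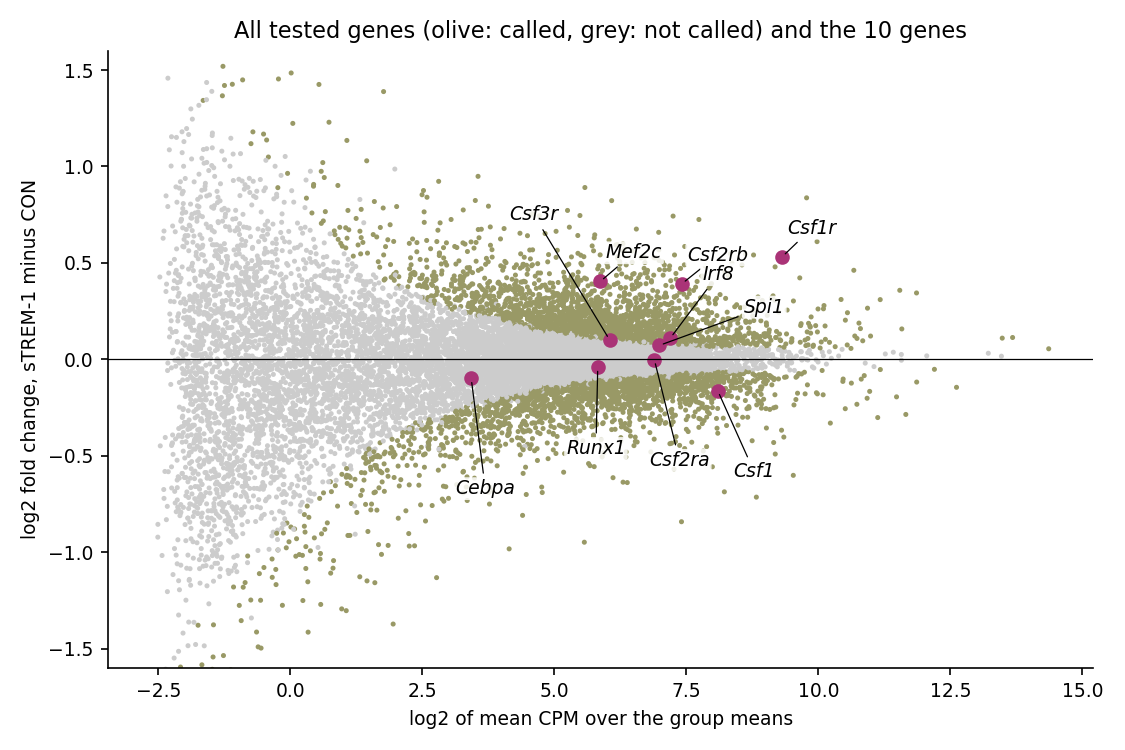
Log2 fold change (sTREM-1 minus CON) of tested genes against the log2 of their mean CPM, olive where called by edgeR at an adjusted p under 0.05 and grey where not, with the 10 genes marked; 41 genes beyond ±1.6 lie outside the plot. Csf1r stood at the high end of the CPM axis with a log2 fold change of 0.53, and 166 genes called higher had a larger one. Csf2ra, Runx1, Cebpa and Spi1 lay within the grey band at their expression level.

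Levels were compared between genes after division by the length of the longest coding transcript, as CPM per kilobase. In the CON group Csf1r stood first at 111 ± 0.67 CPM per kilobase (SD, n = 3), followed by Csf1 at 69.1 ± 1.15, Csf2ra at 64.3 ± 2.17, Spi1 at 60.8 ± 0.58 and Irf8 at 49.6 ± 1.34. Csf2rb (30.1 ± 1.17) and Csf3r (18.3 ± 0.41) came next, and Runx1 (9.78 ± 0.35), Mef2c (8.02 ± 0.33) and Cebpa (4.23 ± 0.34) were lowest. Neighbours in this order did not overlap between CON libraries. In the sTREM-1 group Csf1r reached 160.2 ± 4.36 CPM per kilobase, and Csf1 (61.7 ± 1.01) came after Csf2ra (64.2 ± 2.25) and Spi1 (64.0 ± 2.07), whose libraries overlapped with each other and with those of Csf1. Mef2c (10.6 ± 0.20) and Runx1 (9.51 ± 0.63) also changed places, without overlap. The order of these genes depends on the length used, since with all annotated exon bases Spi1 stood above Csf2ra, Csf2rb above Irf8 and Cebpa above Mef2c in the CON group.

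**Figure D4:**
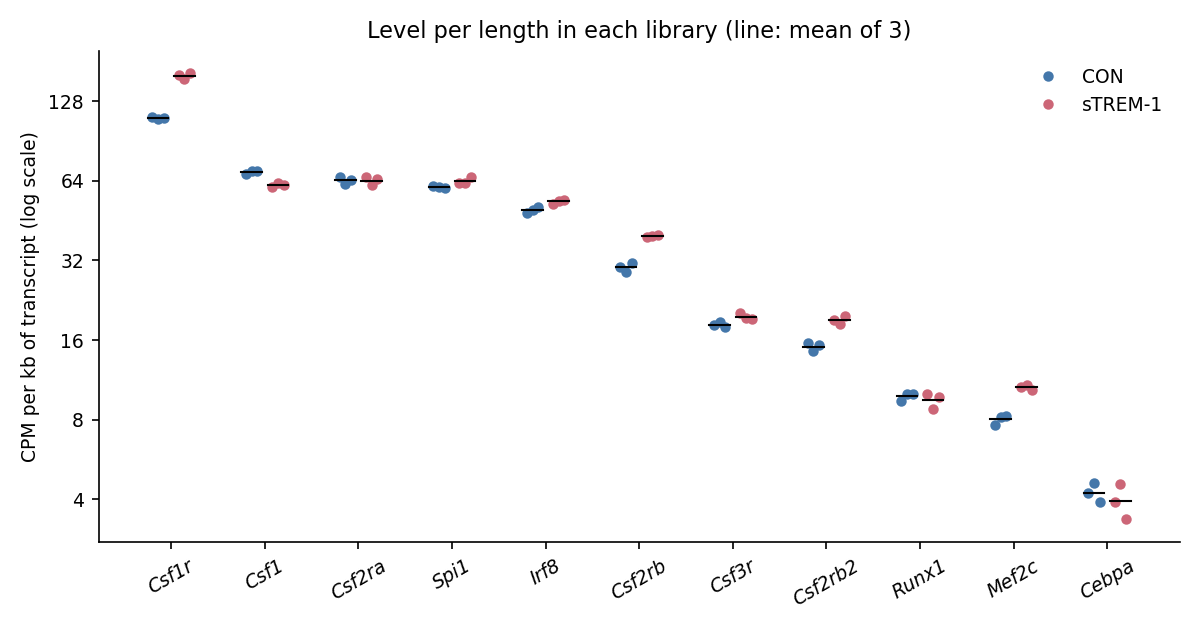
CPM per kilobase of the longest coding transcript (vertical axis, log scale) in each CON and sTREM-1 library for the 10 genes and Csf2rb2; lines are the means of 3 libraries. Csf1r was highest in both groups and Cebpa lowest.

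Further ligands and receptors of this cytokine family were followed in a list of 16 genes, of which 6 passed the filter and 6 had no count in any library. Of those tested, 1 was called higher (Csf2rb2, given above) and 3 were called lower (16.5% and 14.1% over all tested genes), and the median log2 fold change was -0.30. Csf3, which encodes G-CSF, was counted 945, 926 and 1010 times in the CON group against 512, 518 and 487 times in the sTREM-1 group. It went from 23.5 ± 1.13 to 11.9 ± 0.58 CPM (SD, n = 3 each) and fell by 0.98 ± 0.07 (SE) on the log2 scale with an adjusted p of 8.66e-12 by edgeR, while its receptor gene Csf3r was called slightly higher. Il3ra, the alpha chain gene of the IL-3 receptor, fell by 0.41 on the log2 scale (adjusted p of 0.00303 by edgeR), and Kitl, the stem cell factor gene, fell by 0.40 (adjusted p of 2.1e-08 by edgeR). Csf2, which encodes GM-CSF, had 8 counts in each CON library and 4, 4 and 16 in the sTREM-1 libraries, too few to be tested. Il3 was listed at 0 in all 6 libraries. Whether the counting could register this gene is not given in the sources used here, so the 0 sets no upper limit on its mRNA.

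A list of 31 genes acting at or just below CSF1R had 30 tested genes, of which 16 were called, 11 higher and 5 lower, against 30.5% called over all tested genes (16.5% higher, 14.1% lower). The median log2 fold change of the list was 0.08. Among those called higher with groups apart were Adam17, which encodes the protease that sheds CSF1R from the cell surface (log2 fold change 0.29, adjusted p of 1.76e-10 by edgeR), the adaptor gene Grb2 (0.26, 4.25e-08) and the kinase gene Syk (0.21, 1.67e-07). The Src-family kinase genes Fyn (-0.33, 1.67e-07), Lyn (-0.21, 1.22e-06) and Src (-0.20, 0.0452) and the PI3K regulatory subunit gene Pik3r1 (-0.16, 0.00331) were called lower by edgeR. The call of Src was lost with no filter on low counts (adjusted p of 0.0646) and without CON replicate 1, CON replicate 3, sTREM-1 replicate 1 or sTREM-1 replicate 2 (0.107 to 0.184). The adaptor gene Tyrobp (DAP12), named here after its values were seen, measured 300.4 ± 1.07 CPM in the CON group and 293 ± 5.03 CPM in the sTREM-1 group (SD, n = 3 each) and was not called (adjusted p of 0.261 by edgeR).

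Of 53 other transcription factors of the myeloid and haematopoietic lineage, 44 were tested and 22 were called, 13 higher and 9 lower, beside the same 30.5% of all tested genes (16.5% higher, 14.1% lower). The median log2 fold change of these factors was 0.05. Id2 (0.29, adjusted p of 9.35e-10 by edgeR), an inhibitor of basic helix-loop-helix factors, the ETS-family genes Fli1 (0.27, 0.000392) and Etv6 (0.25, 5.35e-06) and the haematopoietic cofactor gene Lmo2 (0.24, 2.97e-06) rose. The orphan nuclear receptor gene Nr4a1 (-0.56, 1.07e-05), Trib1 (-0.34, 0.00175), whose product directs C/EBPα to degradation, and the C/EBP genes Cebpb (-0.25, 3.77e-06) and Cebpd (-0.18, 0.0218) fell by the same test. Cebpb went from 251 ± 20.1 to 211 ± 9.18 CPM (SD, n = 3 each). The call of Cebpd was lost without CON replicate 1 (adjusted p of 0.209) or sTREM-1 replicate 1 (0.110). Runx3, named here after its values were seen, was called lower (-0.91) through CON replicate 3 alone, which held 213 counts against 78 and 59 in the other CON libraries and 55 to 77 in the sTREM-1 libraries. Without that library its log2 fold change was -0.14 with an adjusted p of 0.776 by edgeR. 

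The last list held 18 macrophage genes with a known PU.1 site in their regulatory DNA. All 18 were tested and 12 were called, 11 higher and 1 lower, where 30.5% of all tested genes were called, 16.5% higher and 14.1% lower. Their median log2 fold change was 0.13. Cybb (0.43, adjusted p of 2.1e-14 by edgeR) and Ncf1 (0.35, 5.99e-11), which encode subunits of the phagocyte NADPH oxidase, the tyrosine kinase gene Fes (0.42, 1.59e-08) and the scavenger receptor gene Msr1 (0.40, 1.59e-11) rose, and Cd14, the co-receptor gene for lipopolysaccharide, fell (-0.12, 0.000818). Laptm5, named here after its values were seen, was called higher through sTREM-1 replicate 3 alone, with 2940 counts there against 175 to 195 in the other 5 libraries. Without that library its log2 fold change was 0.00036 and it was not called. The members of these lists were compiled with results of these data known, and the counts describe the lists only.

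**Figure D5:**
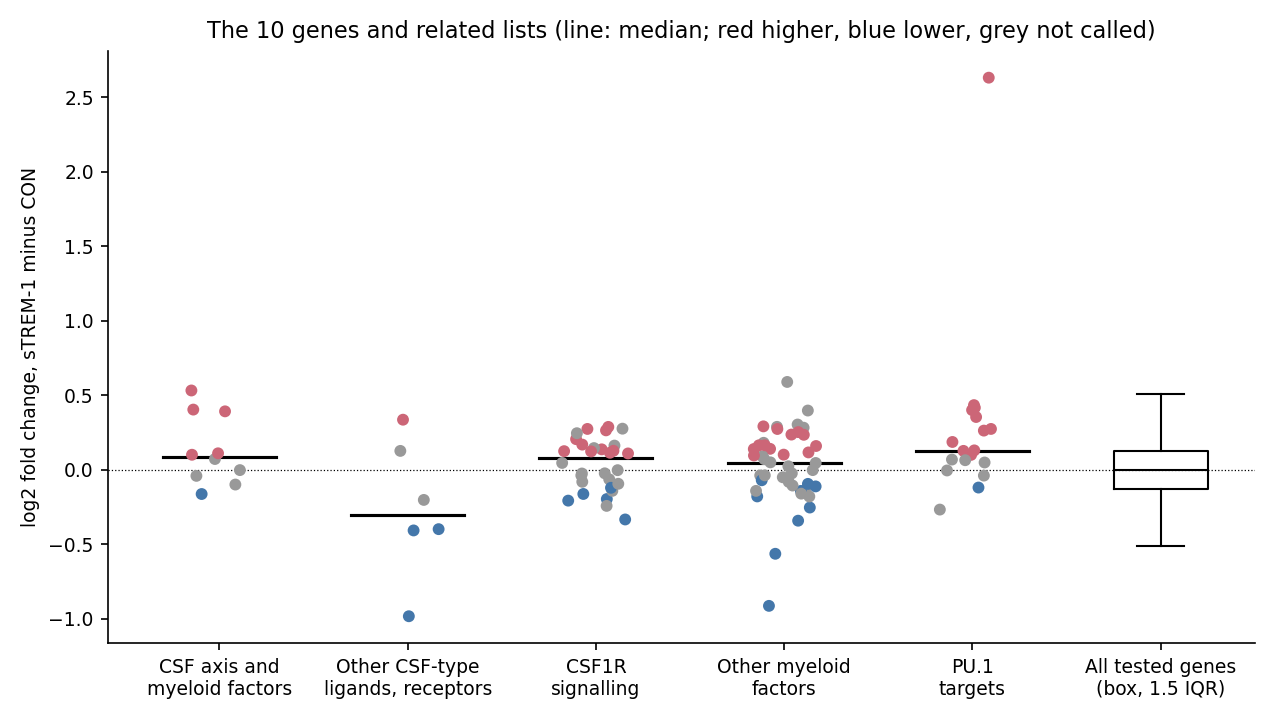
Log2 fold change (sTREM-1 minus CON, vertical axis) of the 10 genes and of the tested genes of 4 related lists, red where called higher and blue where called lower by edgeR, with a line at each median; the box shows the quartiles of all tested genes with whiskers to 1.5 times the interquartile range. The medians were 0.09 for the 10 genes, -0.30 for other ligands and receptors, 0.08 for CSF1R signalling, 0.05 for other myeloid factors and 0.13 for PU.1 targets, and the point above 2.5 is Laptm5, which rests on 1 library.

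The RefSeq promoter table of GRCm38.p6, with windows from 250 bases before to 50 bases after a start site, held 11 windows for 7 of the 10 genes: Csf1, Csf2ra, Csf3r, Irf8, Runx1, Cebpa and Mef2c. They were searched on both strands for exact letters of the PU.1 box (GAGGAAGT), a RUNX motif (TGTGGT), a C/EBP motif (TTGCNNAA) and an IRF motif (GAAANNGAA). The IRF letters occurred once, as GAAAGAGAA 40 bases after the start site of Csf3r on the plus strand, in 1 of 11 windows against 8.56% of all 32851 promoter windows. The RUNX letters occurred in 1 of 11 windows, at 28 and 36 bases after a start site of Runx1 as ACCACA on the other strand, against 16.8% of all windows. The PU.1 box and the C/EBP motif were in none of the 11 windows, against 3.20% and 10.8% of all windows, and no match overlapped with that of another motif. A match is a description of letters only.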

How the data were processed

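RNA of BV2 cells was sequenced in 3 CON and 3 sTREM-1 libraries. According to the methods, the authors checked reads with FastQC, quantified them with RSEM and used edgeR. The submitters' processing notes list HISAT2 2.0.4 and the human builds hg19 and GRCh38, whereas the symbols are mouse symbols. The annotation and strand setting are not given in the sources used here. The values deposited by the authors are raw, whole-number gene counts. The methods give n = 4 and the labels 3 libraries per group. All columns were used, and groups were taken from the labels.

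In R 4.3.3, edgeR 4.0.16 was used to remove low genes (filterByExpr, minimum count 10), to scale by TMM and to run the quasi-likelihood test, adjusted by Benjamini-Hochberg over the 14120 tested genes and called under 0.05. CPM are TMM-scaled. Standard errors were derived from the F statistic. Libraries of 1 group differed by more than sampling noise (chi-square per gene 3.46 to 5.04, against 20.6 to 22.6 between groups). An exact permutation test of 3 against 3 allows no two-sided p under 0.1 and was not used. The code was tested on simulated data. Alternatives were other scalings and filters, DESeq2 1.42.0, voom of limma 3.58.1, a replicate block, other thresholds and leaving out each library. Genes and lists were chosen with earlier results of these data known. Named are the 10 genes, Csf2rb2, Il34, Csf2, Csf3, Il3 and, per list and direction, at most 4 called genes with groups apart and the largest change; genes added after their values were seen are marked so, and some genes that the rule selects are not reported here. Coordinates and transcripts are those of GENCODE M21 (GRCm38), and sequences were aligned with Biopython 1.88.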

Additional observations from a re-analysis of the deposited data

How the results depend on the processing

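The calls of Csf1r, Csf1, Csf2rb, Irf8 and Mef2c and the missing calls of Csf2ra, Spi1, Runx1 and Cebpa held in all 13 other fits run for each gene (14 for Csf2rb, with the summed rows), and only the call of Csf3r did not, so 5 or 6 of the 10 genes were called in these. The log2 fold change of Csf2ra turned positive with no filter (0.00047) and ran from -0.029 to 0.024 over the fits without 1 library, turning positive without CON replicate 1 (0.021) and without sTREM-1 replicate 2 (0.024). That of Runx1 ran from -0.081 to 0.011 (positive without sTREM-1 replicate 2) and that of Cebpa from -0.22 to 0.0018 (positive without sTREM-1 replicate 3). With a further requirement of at least 1.5-fold by edgeR, 0 of the 10 genes were called (0 higher, 0 lower; 7 had an unadjusted p under 0.05, and DESeq2 called 5 without the fold requirement). The same requirement left 1 call among other ligands and receptors (0 higher, 1 lower, Csf3), 0 in CSF1R signalling (0 higher, 0 lower), 1 among other myeloid factors (0 higher, 1 lower, Runx3) and 1 among PU.1 targets (1 higher, Laptm5, and 0 lower). At an adjusted p under 0.01, 3 CSF1R signalling genes and 5 other myeloid factors were called lower. Leaving out each library gave 3 to 5 CSF1R signalling genes called lower (3 without sTREM-1 replicate 1), 5 to 8 other myeloid factors called lower (5 without sTREM-1 replicate 1) and 1 to 2 PU.1 targets called lower (2 without sTREM-1 replicate 3). The median of the other myeloid factors was -0.011 with no filter and 0.0078 without sTREM-1 replicate 1, and that of CSF1R signalling 0.019 without sTREM-1 replicate 2. The causes were not tested.

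CON and sTREM-1 libraries with the same number had correlations of -0.02, -0.03 and -0.01, and those with different numbers ran from -0.01 to 0.03. With 3 libraries per group and labels that do not mention pairing, these values cannot decide whether samples were handled in pairs. A replicate block gave 4613 calls instead of 4312 over all genes, and 6 of the 10 genes were called, 5 higher and 1 lower. Csf2, with 4 to 16 counts per library, was too low to be tested, and scaling moved the median of all genes by under 0.03.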
